A study of Arabidopsis thaliana with 24 samples.

Results

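The 10 Aux/IAA genes described here are IAA1, IAA2, IAA3, IAA5, IAA7, IAA14, IAA16, IAA17, IAA19 and IAA29 of Arabidopsis thaliana. They were named as auxin response genes and matched by gene identifier, and were chosen with earlier results of these data known. All 10 were found among the 33469 genes of the expression table for Col-0 and the 32844 genes of the table for WS and sku5. Roots were collected after 2 suborbital flights and from ground controls, and their poly(A) RNA was sequenced. On the Virgin Galactic vehicle (VG), 10-day-old seedlings of 2 wild types flew, Columbia (Col-0) and Wassilewskija (WS). On the Blue Origin vehicle (BO), 11-day-old WS flew beside sku5, a line of WS background with a mutated SKU5 gene. Each line had a flight group and a ground group, which gave 8 groups of 3 libraries. All seedlings grew on vertical plates of Murashige-Skoog medium with sucrose and vitamins in constant light, and were moved to the launch site of their flight, where conditions differed between the flights. Black-out cloth covered the plates that flew, which passed through raised gravity, about 3 minutes of microgravity and raised gravity again. BO flight seedlings were fixed 33 minutes after landing, and BO ground seedlings stayed in a plant cultivator and were harvested 1 h later. Whole roots were cut from fixed seedlings. The replicates of 1 group came from roots fixed together in a single tube, so each p-value below measures only the spread between these samples.

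Aux/IAA proteins are short-lived repressors of auxin signalling. They bind auxin response factors (ARFs) on DNA and recruit TOPLESS corepressors, and auxin acts as a glue between their degron and the receptors TIR1 and AFB, which send them for degradation. Many Aux/IAA genes are themselves switched on by auxin within minutes, so their transcripts are both a part and a readout of the pathway. In roots, stabilised forms of these repressors disturb gravitropism, root hairs and lateral roots.

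The stretch that makes an Aux/IAA protein a target of auxin is the degron, and a script found its core of 5 codons exactly once in the coding sequence of each of the 10 genes. The coding bases of that core (capitals) are shown with 12 bases on each side (lower case). Aux/IAA genes outside these 10 were not searched for it. The sequences are from the RefSeq annotation of the TAIR10.1 assembly and run 5′ to 3′ on the coding strand.
IAA1: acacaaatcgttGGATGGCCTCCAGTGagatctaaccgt
IAA2: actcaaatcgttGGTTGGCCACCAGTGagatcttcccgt
IAA3: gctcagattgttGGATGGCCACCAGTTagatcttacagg
IAA5: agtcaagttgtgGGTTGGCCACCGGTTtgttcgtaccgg
IAA7: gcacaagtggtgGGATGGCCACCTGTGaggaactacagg
IAA14: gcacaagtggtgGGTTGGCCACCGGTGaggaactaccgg
IAA16: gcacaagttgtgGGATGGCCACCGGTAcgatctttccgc
IAA17: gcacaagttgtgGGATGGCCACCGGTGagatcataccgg
IAA19: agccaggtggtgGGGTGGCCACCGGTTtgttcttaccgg
IAA29: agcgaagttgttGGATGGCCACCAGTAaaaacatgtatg
Against IAA7, between 12 and 14 of the 15 core bases were identical in the other 9 genes. Of the whole stretch of 39 bases, 36 were identical in IAA14, 32 in IAA17 and 24 in IAA29. Over whole coding sequences, the closest relatives were IAA7 with IAA14 (85.4% of the bases of the shorter one identical) and IAA1 with IAA2 (83.0%). No stretch of 50 bases was shared between transcripts of any of the 10 genes (0 shared stretches), so a long read from one member has no perfect match in another.

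The genes lie on chromosomes 1, 3 and 4 of TAIR10.1. Of the 10, 6 lie in pairs that point away from each other with 1 annotated gene between them. IAA14 (AT4G14550, chromosome 4, 8347822 to 8350263, minus strand) is 10732 bases from IAA1 (AT4G14560, 8360996 to 8362033, plus strand). IAA2 (AT3G23030, chromosome 3, 8180646 to 8182095, minus strand) is 12510 bases from IAA7 (AT3G23050, 8194606 to 8197161, plus strand). IAA3 (AT1G04240, chromosome 1, 1128149 to 1129689, minus strand) is 6388 bases from IAA17 (AT1G04250, 1136078 to 1138663, plus strand). The other 4 stand alone: IAA5 (AT1G15580, chromosome 1, 5365512 to 5366497, minus strand), IAA16 (AT3G04730, chromosome 3, 1288155 to 1290891, minus strand), IAA19 (AT3G15540, chromosome 3, 5264001 to 5265695, plus strand) and IAA29 (AT4G32280, chromosome 4, 15583332 to 15584903, plus strand). IAA3 overlaps a gene on the opposite strand (AT1G04230) by 640 bases, and IAA5 overlaps another by 48 bases. The library kit keeps strand, but whether the counting used it is not stated, so the values of IAA3 and IAA5 are uncertain in that respect.

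Values are FPKM, that is, fragments scaled by transcript length and by the size of the library, so levels can be compared between genes per length. A library had 18176 to 18877 genes with at least 1 FPKM. The number of reads per library is unknown, and as a rough scale from counts the authors deposited for other genes, 1 FPKM stands for about 24.1 (IAA5) to 62.6 (IAA16) normalized counts. Pearson's r between libraries of 1 group, across genes, ran from 0.931 to 0.976. sku5 flight replicate 3 had the fewest genes at 1 FPKM. SKU5, the mutated gene, lay between 3.17 and 9.85 FPKM in the 6 sku5 libraries and between 27.6 and 94.2 in the 12 WS libraries. All 7 root markers were above 0 in each library, with summed levels between 2195 and 8290 FPKM.

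The 10 genes differed widely in level. IAA16, IAA17 and IAA2 together held 82.8% to 90.1% of the summed FPKM of the 10 in every one of the 24 libraries. IAA16 ranged from 131 to 231 FPKM, IAA17 from 66.6 to 207 and IAA2 from 55.8 to 152. IAA7 lay in the middle (13.7 to 42.1 FPKM), followed by IAA3 (7.67 to 19.4). IAA14, whose stabilised form blocks lateral root formation, ranged from 3.75 to 13.2 FPKM. IAA1 and IAA19, both early auxin-induced genes, ranged from 1.89 to 13.1 and from 1.00 to 14.1. IAA5 and IAA29 were at the edge of detection: IAA5 reached 1 FPKM in 3 of 24 libraries, and IAA29, a gene known for its induction in shade, in 4 of 24 and was listed at 0 in all 6 Col-0 libraries. To be tested, a gene had to reach 1 FPKM in 3 libraries of its table, which 8 members passed in Col-0 and all 10 in WS and sku5. IAA5 passed through 2 WS BO ground libraries and 1 WS BO flight library, and IAA29 through 2 WS and 2 sku5 BO ground libraries, so both passed mainly on ground values.

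**Figure D1:**
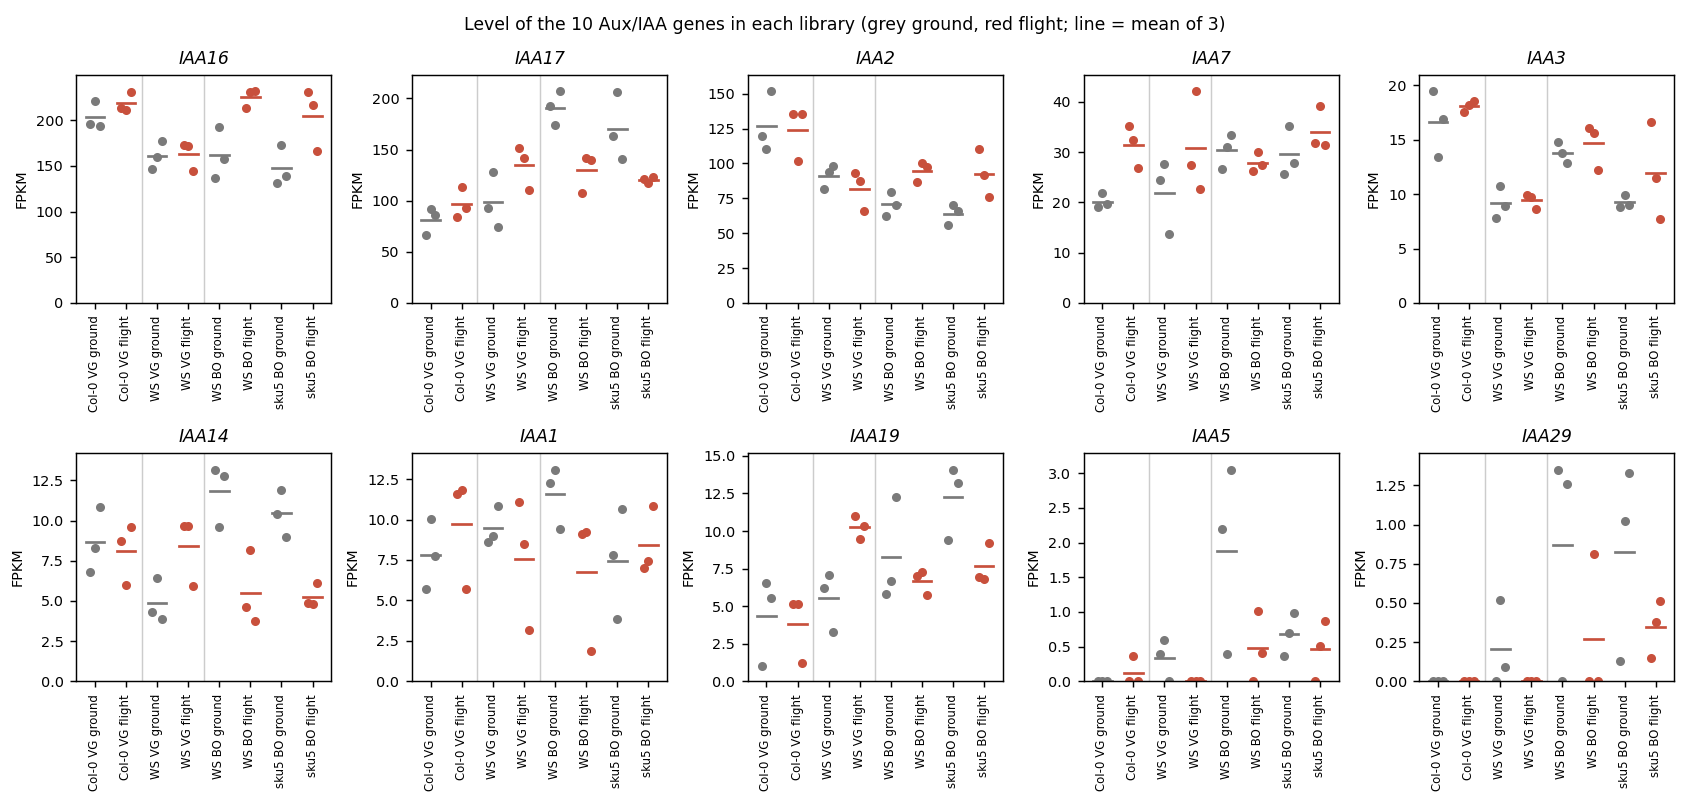
FPKM of each of the 10 Aux/IAA genes in the 24 libraries, by group on the horizontal axis (points, libraries; lines, means of 3; grey, ground; red, flight; each panel has its own linear axis from 0). In the BO groups, IAA14 and IAA17 lie lower in flight than on the ground in both lines, and IAA16 and IAA2 lie higher on average.

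The BO flight asks what a rocket flight changes in wild-type and sku5 roots. IAA14 fell in both lines, IAA2 rose in sku5, and the abundant pair IAA16 and IAA17 shifted in opposite directions, IAA16 up and IAA17 down, which passed the test only when the lines were averaged. Each line was tested with limma on log2(FPKM + 1), adjusted over all 20127 genes and called at an adjusted p under 0.05, and the mean of the 2 lines' effects (6 flight against 6 ground libraries) was tested in the same fit. That mean was chosen after the values of the members had been seen.

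IAA14 encodes SOLITARY-ROOT, a repressor of lateral root initiation. In WS it lay at 4.61, 8.16 and 3.75 FPKM in flight and at 13.2, 9.57 and 12.8 on the ground. In sku5 it lay at 4.85, 4.79 and 6.13 FPKM in flight and at 10.4, 11.9 and 9.0 on the ground. Every flight library was below every ground library in both lines, and across the lines together. Across the lines this was so for 6.74% of all genes. The log2 change was -1.03 in WS (SE 0.25, limma adjusted p = 0.0152) and -0.87 in sku5 (SE 0.25, limma adjusted p = 0.0372). Over both lines it was -0.95 (SE 0.18, limma adjusted p = 0.001), and this call held in all 20 alternative analyses. In bulk roots, fewer cells that express a gene and less RNA per cell cannot be told apart.

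IAA17 encodes AXR3, whose stabilised form gives agravitropic roots with few root hairs. In WS it lay at 108, 141 and 139.85 FPKM in flight against 193, 174 and 207 on the ground. In sku5 it lay at 121, 117 and 123 FPKM in flight against 163, 206 and 141 on the ground. The groups did not overlap within either line. The changes in the single lines were not called (log2 -0.56, limma adjusted p = 0.0600 in WS, and log2 -0.48, limma adjusted p = 0.1125 in sku5). Over both lines IAA17 fell by 0.52 on the log2 scale (SE 0.13, limma adjusted p = 0.00796).

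IAA16 had the highest median level of the members over the 24 libraries, though IAA17 had the higher mean in both BO ground groups. IAA16 encodes a repressor whose stabilised form lowers the auxin response of the whole plant. In WS it lay at 213, 231 and 231 FPKM in flight and at 136, 192 and 157 on the ground. In sku5 it lay at 230.4, 216 and 167 FPKM in flight and at 131, 173 and 139 on the ground. The WS groups did not overlap, and in sku5 flight replicate 3 lay below ground replicate 2. The log2 change was 0.48 in WS (limma adjusted p = 0.0515) and 0.46 in sku5 (limma adjusted p = 0.0663), neither called, and 0.47 over both lines (SE 0.11, limma adjusted p = 0.00426), which was called.

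IAA2, whose promoter is widely used as an auxin reporter in root tips, was called in sku5 and over both lines. In WS it lay at 86.5, 100.2 and 97.3 FPKM in flight and at 62.3, 79.8 and 69.9 on the ground. In sku5 it lay at 110.1, 91.9 and 76.1 FPKM in flight and at 55.8, 69.9 and 66.2 on the ground. Flight libraries were above ground libraries within each line. The log2 change was 0.42 in WS (limma adjusted p = 0.0994, not called), 0.52 in sku5 (SE 0.16, limma adjusted p = 0.0476) and 0.47 over both lines (SE 0.11, limma adjusted p = 0.00563).

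In counts, 1 of 10 members was called in WS, lower in flight, where 11.7% of all genes were called (5.51% higher and 6.15% lower). In sku5, 2 of 10 were called, 1 in each direction, where 10.3% of all genes were called (5.05% higher and 5.25% lower). Over both lines 4 of 10 were called, 2 in each direction, against 26.1% of all genes (10.8% higher and 15.3% lower). The shares in the single lines are near those of all genes. The groups of 5 members did not overlap in WS and those of 4 in sku5, against 37.4% and 26.1% of all genes. Over the 8 members at 1 FPKM or above in all 24 libraries, which leaves out IAA5 and IAA29, the median log2 change was -0.16 in WS and 0.22 in sku5, beside -0.08 and -0.09 over all genes. The calls in single lines depended on single libraries. In WS, the call of IAA14 was lost without flight replicate 1 or 3 or ground replicate 1 or 3 (limma adjusted p between 0.0593 and 0.0807). In sku5, that of IAA14 was lost without flight replicate 1 or 2 or ground replicate 1 or 2, and that of IAA2 without any library other than flight replicate 3. Over both lines, all 4 calls held in each of the 20 alternatives.

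**Figure D2:**
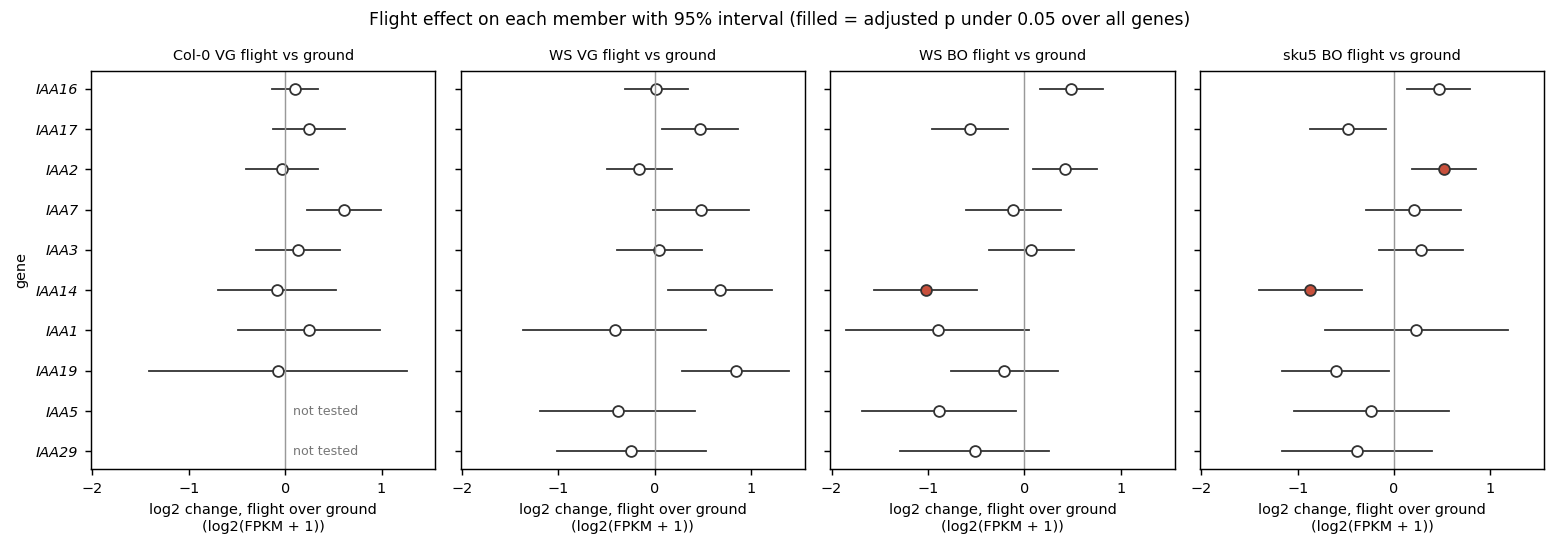
Log2 change of each member, flight over ground, on the log2(FPKM + 1) scale with its 95% interval (lines), in the 4 pairs of groups (panels); filled points were called at a limma adjusted p under 0.05 over all genes. IAA14 is filled in both BO panels (-1.03 and -0.87), IAA2 in sku5 (0.52), and no point is filled at VG.

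Of the other 6 members at BO, 0 were called in WS, in sku5 or over both lines. An unadjusted limma p under 0.05 was found for IAA5 in WS and for IAA19 in sku5 and over both lines. Such a p was found for 26% of all genes in WS, 25% in sku5 and 37.8% over both lines. IAA19 (MSG2), known from tropic bending of hypocotyls, lay at 6.97, 6.80 and 9.21 FPKM in sku5 flight and at 9.41, 14.1 and 13.2 on the ground, which did not overlap. Its log2 change was -0.60 in sku5 (limma adjusted p = 0.161) and -0.21 in WS (limma adjusted p = 0.668). IAA1 (AXR5) in WS lay at 9.08, 9.23 and 1.89 FPKM in flight and at 12.3, 13.1 and 9.39 on the ground, and flight replicate 3 was far below the other libraries. Its log2 change was -0.90 in WS (95% interval -1.85 to 0.05) and 0.23 in sku5 (-0.72 to 1.18). IAA5 in WS was listed at 0, 1.01 and 0.41 FPKM in flight and at 2.19, 0.39 and 3.05 on the ground, with a log2 change of -0.89 (limma adjusted p = 0.146). IAA3 (SHY2), a brake on root meristem growth, and IAA7 (AXR2) had log2 changes between -0.12 and 0.28 in the 2 lines. IAA29 had log2 changes of -0.52 in WS and -0.38 in sku5, with all 12 libraries between 0 and 1.35 FPKM.

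Some markers of shoot and root differed between BO flight and ground. The summed level of 5 shoot markers was 507 to 647 FPKM in the 6 BO flight libraries and 297 to 472 in the 6 BO ground libraries, and the antenna gene LHCB1.3 was called higher in sku5 and over both lines (log2 change 1.02, limma adjusted p = 0.000815), as was LHCB2.1 over both lines (limma adjusted p = 0.0441). The other 3 shoot markers were not called: over both lines the log2 change was 0.37 for RBCS1A, -0.28 for RCA and -0.25 for CA1, and CA1 lay between 0 and 7.92 FPKM in all 24 libraries. The root marker PYK10, a beta-glucosidase of root cells, fell over both lines (log2 change -0.52, limma adjusted p = 0.0416). PYK10 made up 93.7% to 97.8% of the summed level of the 7 root markers in the 12 BO libraries. The other 6 were not called, with log2 changes of 0.38 for PIN2, 0.26 for SHR, 0.18 for COBL9, 0.07 for CASP1, 0.04 for SCR and -0.37 for EXPA7 over both lines, and their summed level was 205 to 296 FPKM in flight and 171 to 274 on the ground. Of the root tip markers, 0 of 6 were called over both lines (0 with an unadjusted p under 0.05, beside 37.8% of all genes). The part of these differences in the values of the Aux/IAA genes was not tested. The flight itself, the black-out cloth and the hour between the harvests cannot be told apart at BO.

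The 4 members that were called over both lines were set beside IAA19 for their start-proximal sequence, since IAA19 carries the most copies of the auxin response element. Below are the 250 bases before the annotated transcript start (RefSeq, TAIR10.1), 5′ to 3′ on the gene's strand. They are chr4:8350264-8350513 (minus strand) for IAA14, chr1:1135828-1136077 (plus) for IAA17, chr3:1290892-1291141 (minus) for IAA16, chr3:8182096-8182345 (minus) for IAA2 and chr3:5263751-5264000 (plus) for IAA19. Capitals mark matches to TGTCTC, the classical auxin response element, to TGTCGG, a variant of it, and to CACGTG, the G-box, on either strand.
IAA14: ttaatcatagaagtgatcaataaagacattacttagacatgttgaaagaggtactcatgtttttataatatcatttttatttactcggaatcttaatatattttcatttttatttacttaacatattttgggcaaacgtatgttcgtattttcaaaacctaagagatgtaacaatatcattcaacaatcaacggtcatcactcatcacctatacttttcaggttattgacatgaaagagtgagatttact
IAA17: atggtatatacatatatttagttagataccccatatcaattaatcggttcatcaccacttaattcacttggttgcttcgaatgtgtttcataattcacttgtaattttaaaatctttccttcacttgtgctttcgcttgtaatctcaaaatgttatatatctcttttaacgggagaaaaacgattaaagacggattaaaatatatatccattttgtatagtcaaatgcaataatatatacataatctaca
IAA16: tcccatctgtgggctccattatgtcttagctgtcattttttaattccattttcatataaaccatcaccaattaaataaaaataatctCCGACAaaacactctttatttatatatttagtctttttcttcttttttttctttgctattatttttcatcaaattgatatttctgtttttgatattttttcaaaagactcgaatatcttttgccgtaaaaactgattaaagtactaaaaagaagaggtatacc
IAA2: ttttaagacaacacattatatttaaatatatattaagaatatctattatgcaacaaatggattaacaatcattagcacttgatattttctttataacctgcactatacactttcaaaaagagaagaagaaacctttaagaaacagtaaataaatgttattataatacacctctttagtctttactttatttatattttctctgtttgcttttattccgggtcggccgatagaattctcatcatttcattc
IAA19: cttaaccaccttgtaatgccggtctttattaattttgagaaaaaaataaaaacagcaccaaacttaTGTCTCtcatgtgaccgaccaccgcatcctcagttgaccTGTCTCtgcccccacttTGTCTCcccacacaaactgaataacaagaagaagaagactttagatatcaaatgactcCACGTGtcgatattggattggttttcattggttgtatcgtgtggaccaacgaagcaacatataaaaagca
IAA19 held TGTCTC 3 times, 184, 145 and 128 bases before the start counted to the first base of the match, and a G-box. IAA16 held TGTCGG once, on the other strand, and IAA14, IAA17 and IAA2 held no match in this window. Among the other 5 members, IAA1 held TGTCTC and TGTCGG, and IAA7 held a G-box. IAA5 held TGTCTC 67 bases before the start, and TGTCGG 226 and 97 bases before it. Over 27443 windows of this length, TGTCTC was in 10.9%, TGTCGG in 4.2% and CACGTG in 6.5%, counting both strands. These are matches of letters in 1 window, and they describe no binding.

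The make-up of the summed level of the 10 genes differed between the arms at BO. This sum is only a part of the family. IAA9 and IAA28, which are not in it, had means of 477 and 266 FPKM in WS BO ground, beside 191 for IAA17. IAA17 made up 33.4% to 41.2% of the summed FPKM of the 10 genes in the 6 BO ground libraries and 22.8% to 28.4% in the 6 BO flight libraries. IAA16 made up 29.1% to 37.0% on the ground and 38.6% to 45.3% in flight, and IAA2 13.3% to 15.9% and 17.6% to 20.8%. The ranges of the 3 shares did not overlap between ground and flight. These shares are parts of 1 sum, so a fall in one raises the others. In FPKM, the 6 flight and 6 ground libraries overlapped for each of IAA16, IAA17 and IAA2. The ratio of IAA17 to IAA16 was 1.415, 0.903 and 1.314 in the WS BO ground libraries and 0.506, 0.613 and 0.604 in flight. In sku5 it was 1.243, 1.191 and 1.013 on the ground and 0.524, 0.541 and 0.737 in flight. Ground libraries were thus near or above equal levels and flight libraries below. The sum over the 10 genes overlapped between the arms, at 413 to 526 FPKM on the ground and 432 to 544 in flight. At VG, the ratio was 0.422 to 0.804 in WS ground, 0.770 to 0.875 in WS flight and 0.341 to 0.540 in the 6 Col-0 libraries. The shares and the ratio were chosen after the values had been seen, so they are given without a test.

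**Figure D3:**
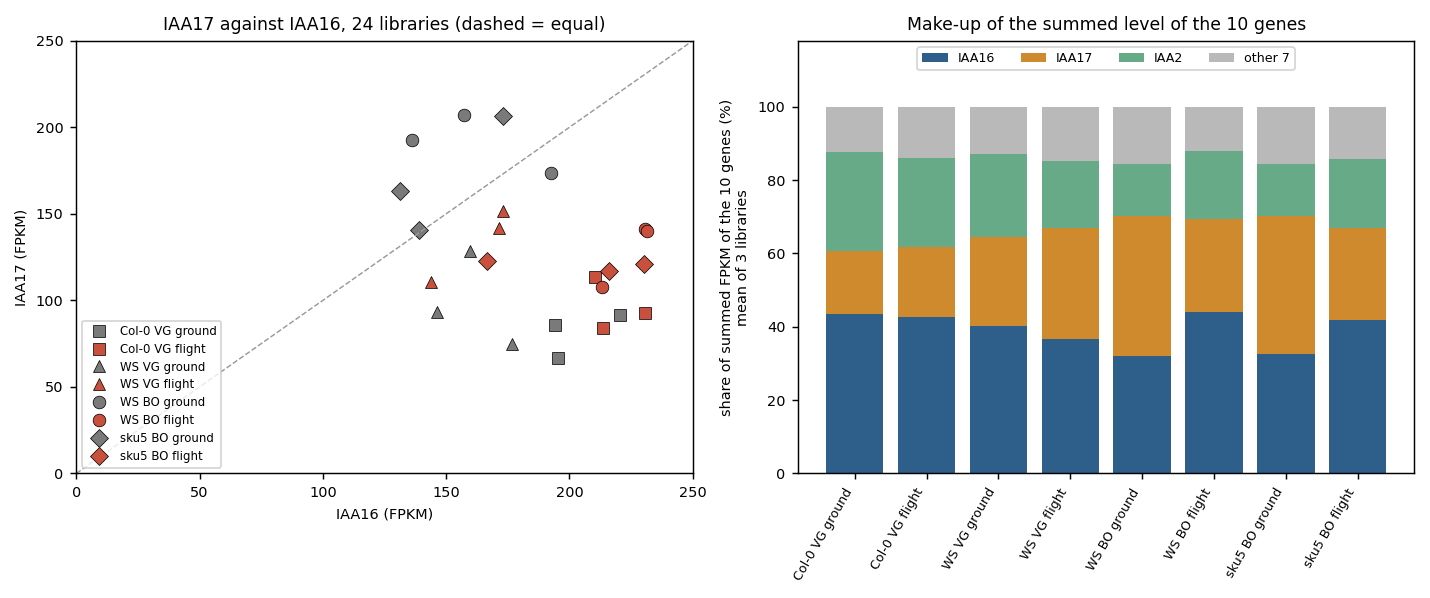
Left, IAA17 against IAA16 in FPKM for the 24 libraries (grey, ground; red, flight; symbols, line and flight; dashed line, equal levels). Right, mean share of IAA16, IAA17, IAA2 and the other 7 members in their summed FPKM, in percent, per group of 3 libraries. BO ground libraries have IAA17 to IAA16 ratios of 0.903 to 1.415 and BO flight libraries of 0.506 to 0.737.

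At VG the seedlings flew a winged rocket plane, and the same comparison of flight with ground was made in Col-0 and WS. In Col-0, 0 of the 8 members tested with limma were called, where 0.00532% of all 18786 genes were called. An unadjusted p under 0.05 was found for 4.93% of all genes and for 1 member. That member was IAA7, at 35.1, 32.4 and 26.9 FPKM in flight and 19.0, 21.8 and 19.7 on the ground. Its groups did not overlap, as for 10.3% of all genes, and its log2 change was 0.61 (SE 0.17, limma adjusted p = 0.911). IAA5 and IAA29 were not tested, since their highest values in Col-0 were 0.36 and 0 FPKM. The other 7 members had log2 changes between -0.09 and 0.25.

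In WS at VG, 0 of 10 members were called by limma, where 0.0298% of all genes were called. With an unadjusted p under 0.05 there were 3 members, beside 9.36% of all genes. IAA19 lay at 11.0, 9.50 and 10.4 FPKM in flight and at 6.24, 7.05 and 3.27 on the ground, without overlap (14.7% of all genes). Its log2 change was 0.84 (SE 0.26, limma adjusted p = 0.376). IAA14 lay at 9.63, 9.66 and 5.91 FPKM in flight and at 4.33, 6.42 and 3.85 on the ground, and IAA17 at 151, 142 and 111 in flight and 93.3, 128 and 74.6 on the ground. Both overlapped between the groups, with log2 changes of 0.68 (limma adjusted p = 0.441) and 0.47 (limma adjusted p = 0.468). IAA16 and IAA2 had log2 changes of 0.02 and -0.16. The authors' deposited tables of changed genes, with 13 genes for Col-0 at VG, 57 for WS at VG, 923 for sku5 at BO and 865 for WS at BO, list 0 of the 10 members. These are small parts of the 33469 genes for Col-0 and the 32844 for WS and sku5, so 0 of 10 says little about the members.

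WS was flown on both vehicles, so the BO flight effect can be set against the VG flight effect in the same line. IAA14 and IAA17 differed between the flights, each with a higher mean in flight than on the ground at VG and a lower one at BO. The difference in log2 change, BO minus VG, was -1.70 for IAA14 (SE 0.36, limma adjusted p = 0.012) and -1.03 for IAA17 (SE 0.26, limma adjusted p = 0.0288). These were 2 of 10 members, where 6.83% of all genes were called. IAA19 differed by -1.05 (limma adjusted p = 0.0972) and IAA2 by 0.58 (limma adjusted p = 0.124), neither called. The ground groups also differed in level. WS BO ground had the highest mean of all 8 groups for both genes, with 11.8 ± 1.97 FPKM (SD, n = 3) for IAA14 and 191 ± 16.7 for IAA17. WS VG ground had 4.87 ± 1.37 and 98.7 ± 27.2. In flight, WS had 5.51 ± 2.34 at BO and 8.40 ± 2.16 at VG for IAA14, and 129.7 ± 19.0 and 135 ± 21.2 for IAA17. The BO and VG flight groups overlapped for both genes. The call of IAA14 held in all 20 alternatives and that of IAA17 in 13, being lost without WS VG flight replicate 1 or 2, VG ground replicate 1 or 3, BO flight replicate 1 or BO ground replicate 1 or 3 (limma adjusted p between 0.0541 and 0.0841). Vehicle, site, age, year and conditions on site change together between the flights and cannot be told apart.

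The order of the groups by mean level shows where each of the 4 genes stood in the whole series, with the 2 tables normalized separately. For IAA14 it ran from WS VG ground (4.87 ± 1.37 FPKM, SD, n = 3) over sku5 BO flight (5.26 ± 0.76), WS BO flight (5.51 ± 2.34), Col-0 VG flight (8.11 ± 1.91), WS VG flight (8.40 ± 2.16), Col-0 VG ground (8.65 ± 2.02) and sku5 BO ground (10.4 ± 1.46) to WS BO ground. For IAA17 it ran from Col-0 VG ground (81.4 ± 13.1) over Col-0 VG flight (96.8 ± 15.3), WS VG ground, sku5 BO flight (120.1 ± 2.98), WS BO flight (129.7 ± 19.0), WS VG flight (135 ± 21.2) and sku5 BO ground (170.0 ± 33.3) to WS BO ground. In both orders each group overlapped the next. For IAA16 the order was sku5 BO ground (148 ± 22.3), WS VG ground (161 ± 15.3), WS BO ground (162 ± 28.3), WS VG flight (163 ± 16.4), Col-0 VG ground (203 ± 14.9), sku5 BO flight (204 ± 33.5), Col-0 VG flight (218 ± 10.8) and WS BO flight (225 ± 10.3). For IAA2 it was sku5 BO ground (64.0 ± 7.30), WS BO ground (70.7 ± 8.80), WS VG flight (82.0 ± 14.4), WS VG ground (91.2 ± 8.55), sku5 BO flight (92.7 ± 17.0), WS BO flight (94.7 ± 7.19), Col-0 VG flight (124 ± 19.2) and Col-0 VG ground (127 ± 21.8). Neighbours were apart only between WS VG flight and Col-0 VG ground for IAA16, and between WS BO flight and Col-0 VG flight for IAA2.

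On the ground alone, sku5 was set against WS, which asks what the mutation does without flight. SKU5 itself, a membrane-anchored cell wall protein, was lower in sku5 (log2 change -3.16, limma adjusted p = 6.78e-06). Of the 10 members, 0 were called by limma, where 0.0149% of all genes were called. With an unadjusted p under 0.05 there were 2 members, beside 2.16% of all genes. IAA3 lay at 8.85, 9.88 and 9.01 FPKM in sku5 and at 14.8, 13.8 and 12.9 in WS, without overlap (7.19% of all genes), and its log2 change was -0.53 (limma adjusted p = 1). IAA19 had a log2 change of 0.56 (limma adjusted p = 1) with overlapping groups. The difference of the BO flight effects, sku5 minus WS, was called by limma for 0 of 10 members and for 0% of all genes. Its unadjusted p was under 0.05 for 0 members and for 1.57% of all genes. For IAA14 that difference was 0.16 with a 95% interval of -0.60 to 0.91, for IAA17 0.08 (-0.47 to 0.64), for IAA16 -0.02 (-0.48 to 0.44) and for IAA2 0.10 (-0.38 to 0.57). The widest of the intervals was that of IAA1, 1.13 (-0.21 to 2.48). Of the comparisons above, those of WS at BO, sku5 with WS on the ground and both differences of flight effects share the WS BO ground libraries.

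The rest of the auxin response pathway was examined at BO from 5 lists, which were chosen with results of these data known. Among receptors and subunits of their ubiquitin ligase, TIR1, the auxin receptor that binds Aux/IAA degrons, was called in both lines and the other 10 genes were not. TIR1 lay at 52.1, 52.8 and 56.0 FPKM in WS flight and 36.0, 36.5 and 32.6 on the ground, and at 58.7, 70.5 and 68.0 in sku5 flight and 32.8, 36.4 and 41.2 on the ground. Flight was above ground in every library, as for 5.56% of all genes across the lines. The log2 change was 0.60 in WS (SE 0.13, limma adjusted p = 0.00631) and 0.82 in sku5 (SE 0.13, limma adjusted p = 0.000917). Both calls held in each of 14 alternatives.

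Among 16 further Aux/IAA genes tested of 19, 1 was called in WS and 2 in sku5, all lower in flight. IAA9 is a repressor known from leaf and vascular development. It lay at 322, 372 and 347 FPKM in WS flight and 486, 460.4 and 485 on the ground, without overlap (37.4% of all genes). Its log2 change was -0.46 in WS (limma adjusted p = 0.0183) and -0.42 in sku5 (limma adjusted p = 0.0317). IAA28, a repressor of lateral root founder cells, fell in sku5 (log2 change -0.78, limma adjusted p = 0.0265) from 269, 322 and 222 FPKM on the ground to 159, 123 and 192 in flight, and its log2 change over both lines was -0.67 (limma adjusted p = 0.00368). IAA12 (BODENLOS) fell over both lines (log2 change -0.51, limma adjusted p = 0.022). The difference between BO and VG in WS was called for 1 of the 16, IAA31, at -1.44 (limma adjusted p = 0.0418), and its levels lay between 0.39 and 4.42 FPKM in the 12 WS libraries.

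Of 15 ARF genes, 0 were called in either line. An unadjusted limma p under 0.05 was found for 2 in WS and 1 in sku5, beside 26% and 25% of all genes. ARF4 and ARF6 were called lower over both lines, with log2 changes of -0.42 and -0.33 (limma adjusted p = 0.0321 and 0.0418). Of 5 TOPLESS family corepressors, TPL was called higher over both lines (log2 change 0.30, limma adjusted p = 0.0249). Of 15 auxin-induced targets tested of 18, 2 were called in WS, 1 in sku5 and 4 over both lines, all higher in flight. GH3.5 is an enzyme that couples auxin to amino acids. It lay at 17.0, 18.5 and 21.4 FPKM in WS flight and at 10.3, 8.49 and 13.9 on the ground, without overlap (37.4% of all genes). Its log2 change was 0.77 in WS (limma adjusted p = 0.0307) and 0.70 in sku5 (limma adjusted p = 0.0487). HAT2, an auxin-induced homeodomain factor, rose in WS by a log2 change of 0.64 (limma adjusted p = 0.0153), and GH3.6 and ATHB2 rose over both lines by 0.49 and 0.62 (limma adjusted p = 0.0132 and 0.0082). In each of the 5 lists, the share called is to be read against that of all genes, 11.7% in WS, 10.3% in sku5 and 26.1% over both lines: for the targets 2, 1 and 4 of 15, for the further Aux/IAA genes 1, 2 and 3 of 16, for receptors and ligase subunits 1 of 11 each time, for the ARF genes 0, 0 and 2 of 15 and for the corepressors 0, 0 and 1 of 5. Counted in both directions, these shares lie near or below the background. By direction, the targets' 2, 1 and 4 of 15, all higher, stand beside 5.51%, 5.05% and 10.8% of all genes. The further Aux/IAA genes' 1, 2 and 3 of 16, all lower, stand beside 6.15%, 5.25% and 15.3%. The lists were chosen with results of these data known, so neither count is a result about the lists. Many of these calls were lost in some alternatives: those of IAA9 held in 10 of 14 in WS and 7 in sku5, IAA28 in 7 in sku5, GH3.5 in 9 in WS and 5 in sku5, and HAT2 in 11. Over both lines ARF4 held in 11 of 20, ARF6 in 8, TPL in 14 and IAA12 in 17, while IAA9, IAA28, TIR1 and the 4 targets held in all 20, and the difference of IAA31 held in 7 of 19. The median log2 change over both lines was 0.11 for the targets, -0.08 for the ARF genes, 0.08 for receptors and ligase subunits and -0.15 for the 8 members without IAA5 and IAA29, beside -0.09 for all genes. At VG, 0 genes of the 5 lists were called by limma in either line. An unadjusted p under 0.05 was found for 1 in Col-0 and 2 in WS, all of the further Aux/IAA genes. Such a p was found for 4.93% of all genes in Col-0 and 9.36% in WS.

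**Figure D4:**
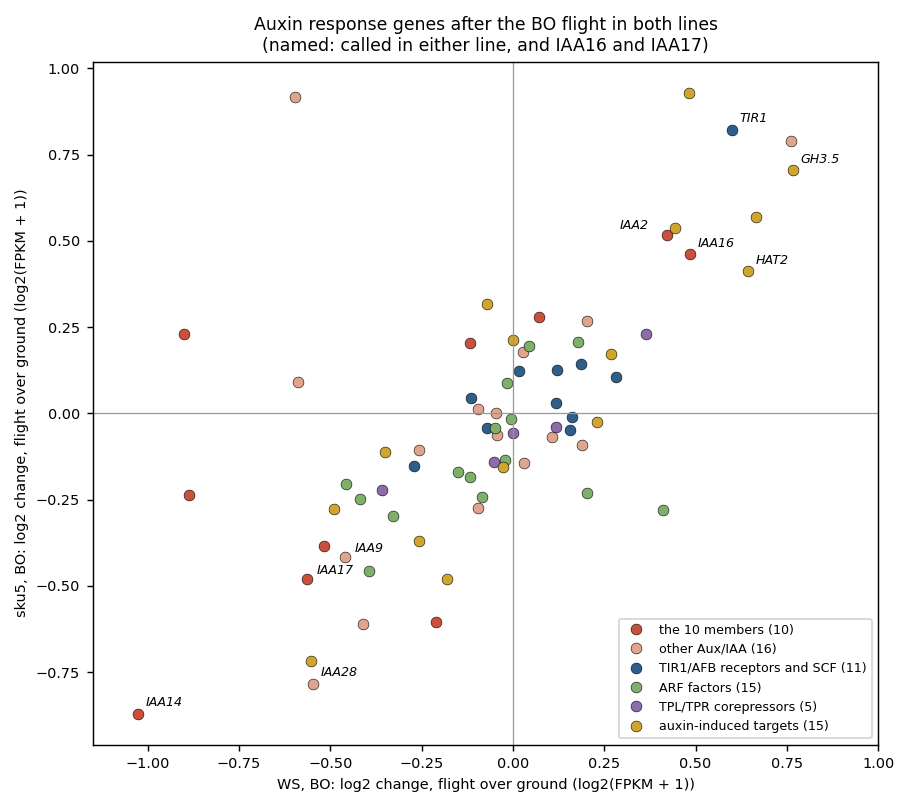
Log2 change at BO, flight over ground, in WS (horizontal) and sku5 (vertical) on the log2(FPKM + 1) scale for the 10 members and 62 genes of the 5 pathway lists that were tested (colours, list). IAA14 lies at the lower left (-1.03 and -0.87) and TIR1 and GH3.5 at the upper right.

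Among the members, some pairs of genes had correlated levels over the 18 WS and sku5 libraries. Pearson's r of log2(FPKM + 1) was 0.867 for IAA17 with IAA14 and 0.809 for IAA16 with IAA2, and 0.704 and 0.898 for deviations from the group means. IAA2 and IAA14 had r = -0.602 over the 18 libraries and 0.141 for the deviations, so their opposition lay between groups. IAA5 and IAA29 had r = 0.858, near the floor of detection. The 18 values share their libraries, groups and scaling. The close coding relatives IAA7 and IAA14 had r = 0.40, and IAA1 and IAA2 had -0.03. Of the neighbouring pairs, IAA14 with IAA1 had 0.307, IAA3 with IAA17 0.284 and IAA2 with IAA7 -0.0048.

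Among 20117 other genes tested, those with the pattern most like each member over these 18 libraries were named. For IAA14 they were HSP70-3 (r = 0.918), a cytosolic chaperone, and CAM2 (0.913), a calmodulin. For IAA17 they were AT1G19450 (0.928) and RPL27B (0.925), a ribosomal protein. For IAA16 they were P5CSB (0.918), of proline synthesis, and PER21 (0.917), a peroxidase. For IAA2 they were AT1G77885 (0.926) and AT2G04690 (0.916). The best r of the other members was 0.85 for IAA3 (AT5G53050), 0.847 for IAA7 (AT3G57360), 0.829 for IAA29 (AT2G17580), 0.801 for IAA5 (AT4G33560), 0.772 for IAA19 (ATEXO70D1) and 0.749 for IAA1 (AT1G75290).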

How the data were processed

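Whole-root poly(A) RNA was sequenced in 24 libraries. Per the submitters' processing notes, the tools were RSEM 1.2.31, STAR 2.7.3a, Trimmomatic 0.36, MultiQC 1.1 and FastQC 0.11.4, with DESeq2 named without a version. Which build served is not given in the sources used here. The authors deposited FPKM values per gene, 1 table for Col-0 (6 libraries) and 1 for WS and sku5 (18 libraries). That they are FPKM was read from the values, and column sums ran from 1021562 to 1290752. A further 4 deposited tables list genes that the authors called changed, whose columns are, per the file headers, log2 fold change, its standard error, a p-value whose adjustment is not stated, and a mean count per gene as a signal of abundance. The lists were searched for the members, and their mean counts gave a rough scale (median 30.9 counts per FPKM and kilobase over 1654 genes, quartiles 25.5 and 37.3). Read totals are unknown, so no counting interval was computed.

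Since the tables hold FPKM, limma 3.58.1 (R 4.3.3) with a mean-variance trend was fitted to log2(FPKM + 1), keeping genes that reached 1 FPKM in 3 libraries. A change on this scale understates that of low genes. Col-0 had its own fit (4 residual degrees of freedom), and WS and sku5 shared another (12). Tests were two-sided, with Benjamini-Hochberg adjustment over all genes of a comparison. There were 7 comparisons, and the mean BO effect of both lines was added after values had been seen. The fits were tested on simulated data. Alternatives were another pseudocount, filter, scaling, trend, block and set of libraries, and leaving out each library. No 2 libraries were identical (0 pairs). Nothing in the labels ties libraries of equal number together.

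All 10 members are named. Of each pathway list, up to 4 called genes per comparison by smallest p are named, with the 2 genes of highest Pearson's r for each member, and SKU5. The members and lists were chosen with earlier results of these data known. Gene models, promoters and coding sequences were read from RefSeq's TAIR10.1, used for names, positions and sequence, with Python 3.11.15, pandas 2.3.3, numpy 2.4.6 and Biopython 1.88, and figures with matplotlib 3.10.9. For coding sequence, the model with the lowest transcript accession was used.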

Additional observations from a re-analysis of the deposited data

Results flagged for a closer look

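In WS, the flight effect on IAA14 and on IAA17 differed between the BO and VG flights by a test of the difference itself. For IAA14 the BO effect minus the VG effect was -1.70 on the log2 scale (95% interval -2.46 to -0.95, limma adjusted p = 0.012), with all 3 BO flight libraries below all 3 BO ground libraries. For IAA17 it was -1.03 (95% interval -1.59 to -0.47, limma adjusted p = 0.0288), again with the BO groups apart and the VG groups overlapping. Groups were apart in WS at BO for 37.4% of all genes, 21.9% being lower in flight. The call of IAA17 held in 13 of 20 alternatives. At BO alone IAA14 was called in WS and IAA17 was not (limma adjusted p = 0.0600), and neither gene was called at VG alone. WS ground means also differed between BO and VG. For IAA17 they were 191 and 98.7 FPKM, beside 129.7 and 135 in flight. For IAA14 they were 11.8 and 4.87 FPKM, beside 5.51 and 8.40 in flight. Vehicle, site, age, year and conditions on site cannot be told apart here.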

How the results depend on the processing

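The number of members called at BO depended on the setting. In WS it was 1, and it became 2 with a filter at 5 FPKM, 3 with a TMM factor, 2 with quantile normalization, 3 with only the groups compared and 2 with a replicate block, and it ran from 0 to 3 when 1 library was left out. In sku5 it was 2, and it became 0 with no filter, 0 with quantile normalization, 1 without the mean-variance trend, 0 with only the groups compared and 1 with the replicate block, and it ran from 0 to 3 when 1 library was left out. The block used replicate numbers, which do not pair the libraries (r of deviations between same-numbered libraries from -0.227 to 0.143 over 15 pairs, 1 of them above 0.1), and it moved the count by at least 1.5 times in these 2 comparisons only. For BO minus VG the count was 2, and 1 to 2 when 1 library was left out. The mean over both lines gave 4 to 5 called members in 20 alternatives, and the other comparisons 0 throughout. The causes were not tested. Of 513 alternatives of called single-gene results 106 lost the call, and 0 of them changed sign. A TMM factor moved the median of all genes from -0.08 to -0.02 in WS and from -0.09 to -0.02 in sku5 at BO. IAA5 and IAA29, at 0 in 11 and 13 libraries, are the least precise members. Only without WS BO ground replicate 2 was IAA5 called lower in WS (limma adjusted p = 0.0261) and over both lines (limma adjusted p = 0.0247). The WS BO ground libraries then left are those through which IAA5 passed the filter, so this call gives no support for a fall.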
